A study of Mus musculus with 6 samples.

Results

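Transcripts of 10 genes that add, remove or bind the RNA mark N6-methyladenosine (m6A) were followed in mouse 1-cell embryos. The genes were taken from a list of symbols and comprised 4 writers (Mettl3, Mettl14, Wtap and Mettl16), 2 erasers (Alkbh5 and Fto) and 4 readers (Ythdc1, Ythdf1, Ythdf2 and Ythdf3). Each had 1 record among the 36065 genes of the table, and all 10 reached 1 in no fewer than 2 libraries, the level required for testing.

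Wild-type embryos had been cultured in vitro in 3 groups. The CBR+SAM group received CBR-5884, an inhibitor of serine metabolism, together with S-adenosylmethionine (SAM), the CBR group received CBR-5884 alone, and the DMSO group received the solvent. Each group had 2 biological replicates, which makes 6 libraries. Doses, culture times, mouse strain and the number of embryos per library are not given in the sources used here, and no group received SAM alone.

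m6A is placed on mRNA mainly by a complex in which METTL3 holds the catalytic site, METTL14 helps to bind the RNA, and WTAP keeps the pair in nuclear speckles. METTL16 is a separate methyltransferase, and both enzymes take their methyl group from SAM, whose supply depends on one-carbon units that serine provides. In human cells METTL16 also acts as a SAM sensor. It methylates hairpins in the 3′ untranslated region of the mRNA for MAT2A, the SAM synthetase subunit, and when SAM is scarce it stays bound and favours splicing of that mRNA. ALKBH5 and FTO are demethylases, and proteins with a YTH domain recognise the methylated base, YTHDC1 in the nucleus and YTHDF1 to YTHDF3 in the cytoplasm. In mouse oocytes YTHDF2 is needed for the normal turnover of maternal mRNA.

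The sequence that METTL16 recognises in MAT2A hairpins was looked for in the longest mouse Mat2a coding transcript of GENCODE M21, since Mettl16 and Mat2a are described together in the results. The motifs TACAGAGAA and TACAGAAAA were searched on the sense strand as DNA letters, and 6 matches were found, all in the 3′ untranslated region. They are shown 5′ to 3′ with the match in capitals and 10 bases on each side, from GRCm38, minus strand.
Mat2a match at chr6:72434235-72434263: tggcgtaggtTACAGAGAAgccttcaagc
Mat2a match at chr6:72433451-72433479: ccttgtgataTACAGAGAAgtcacagggc
Mat2a match at chr6:72433272-72433300: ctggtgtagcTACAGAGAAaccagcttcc
Mat2a match at chr6:72433157-72433185: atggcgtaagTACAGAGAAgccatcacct
Mat2a match at chr6:72433046-72433074: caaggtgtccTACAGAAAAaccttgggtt
Mat2a match at chr6:72432938-72432966: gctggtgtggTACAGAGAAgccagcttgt
5 of them read TACAGAGAA, which occurred at least once in 4.16% of the longest coding transcripts of 21901 genes and at least 5 times in Mat2a only. TACAGAAAA occurred in 3.54%. The longest coding transcripts of the 10 m6A genes held neither motif. The motifs were chosen as those of MAT2A hairpins, so their number in Mat2a beside other genes is not an independent test. A match is a description of these letters, and methylation was not measured.

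The libraries carried abundant zygote transcripts, with 22861 to 29433 for the summed values of 6 oocyte and zygote markers such as Dppa3 and Btg4. Values are abundances divided by transcript length, on a scale close to TPM, a share of all transcripts. Among 8 cumulus cell markers 2 had a mean of at least 1, and their sum was nearly all Serpine2. It was 616 and 237 with CBR+SAM, 580 in both CBR libraries, and 533 and 508 with DMSO, and 8.39 to 14.0 in every library without Serpine2. Sperm markers summed to 9.95 to 14.7, nearly all Prm2, oviduct markers to 2.89 to 4.7, and blood markers to 0.701 or less. CBR+SAM replicate 2 stood apart. Its root mean square log2 difference from the other libraries averaged 0.493 over 5939 genes that averaged 10 or more, against 0.346 to 0.357 for each of the other 5. Several changes are therefore given with and without it. It was also the library with the low Serpine2 value, and whether that bears on any m6A gene was not tested. Cyp19a1, the other cumulus marker with a mean of at least 1, had 11.9 there and 8.14 to 13.6 over all libraries. Read depth is not given with the values. Steps between low values put each library between 10.9 and 64.7 M fragments, with the lower end if every gene's shortest transcript was the one present and the higher end if it was the longest. In such bulk libraries fewer cells with a transcript and less of it per cell cannot be told apart.

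The genes spanned a wide range of abundance, and their order was nearly the same in every group. Mettl3 was the highest and Fto the lowest of the 10 in all 6 libraries. By mean over the libraries the order was Mettl3 (463), Wtap (230), Ythdc1 (171), Ythdf3 (73.0), Alkbh5 (29.1), Ythdf2 (27.4), Mettl16 (6.7), Mettl14 (5.41), Ythdf1 (2.51) and Fto (1.54). Alkbh5 and Ythdf2 had overlapping values in every group, and Mettl16 and Mettl14 overlapped with CBR+SAM. All other neighbours were separate within each group. Mettl3 ranked 325 and Fto 9747 among 10623 protein-coding genes with a mean of at least 1.

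**Figure D1:**
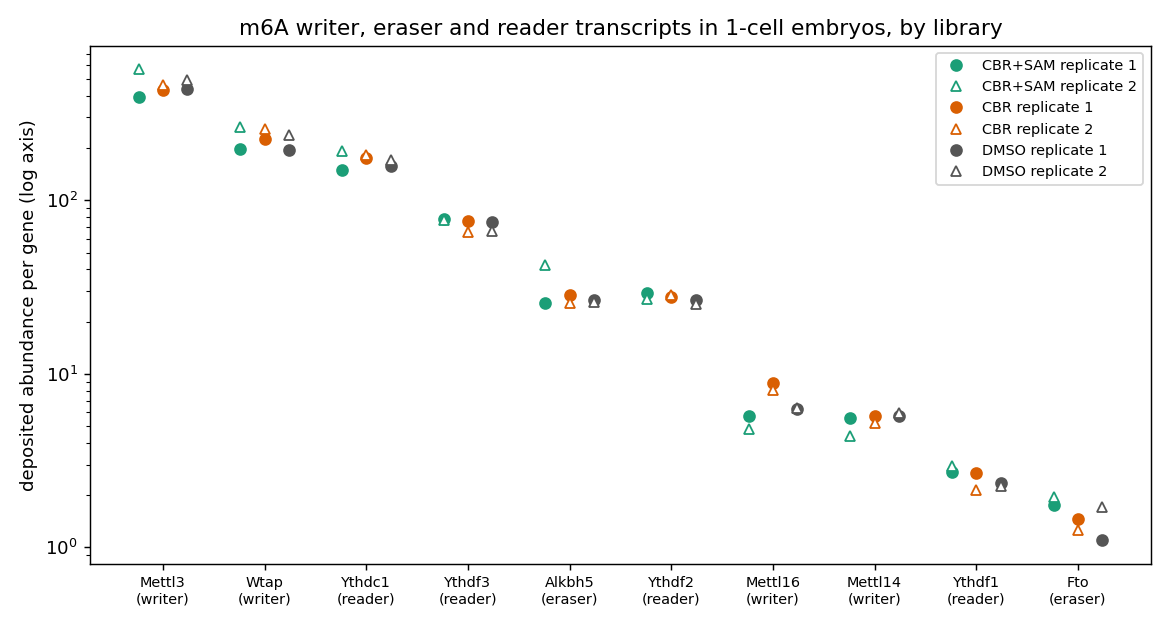
Deposited abundance (log axis) of the 10 genes in each of the 6 libraries, grouped by gene and ordered by mean level; filled circles are replicate 1 and open triangles replicate 2. Mettl3 is highest and Fto lowest in every library, and Mettl16 is the gene whose 2 CBR values lie above all 4 others.

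Mettl16 was the writer whose groups stood furthest apart. It had 5.72 and 4.82 in CBR+SAM embryos, 8.9 and 8.1 in CBR embryos, and 6.29 and 6.36 in DMSO embryos. Both CBR libraries lay above all the others, and both CBR+SAM libraries lay below both DMSO libraries. The mean with CBR+SAM was 0.62 times that with CBR, at 5.27 ± 0.638 and 8.5 ± 0.563 (SD, n = 2 each), and the fitted log2 change was -0.60 (SE 0.18, 95% interval -1.02 to -0.18). In that comparison it ranked 76 of 12249 genes by unadjusted p, and it did not pass adjustment over all of them (adjusted p = 0.988, limma). With CBR against DMSO the ratio of means was 1.34, with a log2 change of 0.37 (interval -0.05 to 0.79, adjusted p = 1), and with CBR+SAM against DMSO it was 0.833 and -0.23 (-0.65 to 0.19, adjusted p = 1). That last change was -0.12 without CBR+SAM replicate 2 and -0.33 without CBR+SAM replicate 1. Over the alternatives the CBR+SAM against CBR change ran from -0.71 to -0.50, with adjusted p from 0.152 to 1. It was -0.50 without CBR+SAM replicate 2.

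Mettl16 (ENSMUSG00000010554) lies on chromosome 11 at 74770830 to 74828525, on the plus strand of GRCm38. Its 3 coding transcripts measure 450 to 12584 bases, and the table gives 1 value per gene. The fragments behind that value were therefore at least 43 to 75 per library if the shortest transcript was the one present and up to 2511 if it was the longest. Which transcript carried the difference was not tested. Protein-coding genes without Gm, Rik or Zfp names were compared with Mettl16 by their log2 values over the 6 libraries. The 3 nearest were Pms2, Gse1 and Ano6, with root mean square differences of 0.0769, 0.0959 and 0.123. Within a difference of 0.2 lay 28 such genes.

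Mat2a, whose mRNA carries the matches shown above, had 41.2 and 29.8 with CBR+SAM, 38.2 and 47.2 with CBR, and 46.5 and 45.5 with DMSO. Both CBR+SAM values lay below both DMSO values, as for Mettl16, while the CBR values lay on both sides of the DMSO pair and the lower of them was below one CBR+SAM value. The lowest value was that of CBR+SAM replicate 2. The log2 change was -0.27 for CBR+SAM against CBR (interval -0.74 to 0.20), -0.38 for CBR+SAM against DMSO (-0.85 to 0.09) and -0.11 for CBR against DMSO (-0.58 to 0.36), none past the threshold (adjusted p = 0.988, 1 and 1, limma). Without CBR+SAM replicate 2 the change was -0.04 against CBR and -0.16 against DMSO. Mat2a overlaps the opposite-strand gene Particl, which has no row in the table, over 508 exonic bases, and the library protocol describes no strand marking.

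**Figure D2:**
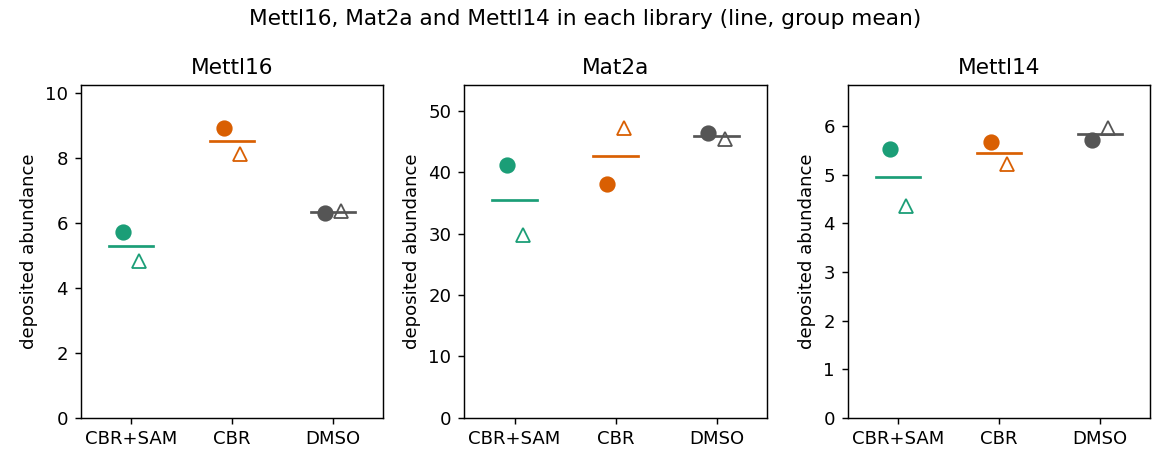
Deposited abundance, on axes that start at 0, of Mettl16, Mat2a and Mettl14 in CBR+SAM, CBR and DMSO libraries (filled circle, replicate 1; open triangle, replicate 2; line, mean of the 2). For Mettl16 the CBR values of 8.9 and 8.1 lie above the CBR+SAM values of 5.72 and 4.82 and the DMSO values of 6.29 and 6.36, while the Mat2a groups of CBR and DMSO overlap.

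The members of the METTL3 complex differed far more from each other than between groups. Mettl3, the catalytic subunit, had 393 and 567 with CBR+SAM, 431 and 461 with CBR, and 435 and 492 with DMSO. The CBR+SAM pair enclosed the other 4 libraries, so the groups overlapped. The gene lies on chromosome 14 at 52294841 to 52305128. Its log2 change was 0.08 for CBR+SAM against CBR (interval -0.38 to 0.55) but -0.18 without CBR+SAM replicate 2, and -0.05 for CBR against DMSO (-0.52 to 0.41). The change for CBR+SAM against DMSO was 0.03 (-0.43 to 0.49), and -0.23 without that replicate. Mettl3 shares 933 exonic bases with Tox4 on the opposite strand, whose own value was 2.73 to 7.15. That value rests on the same division of reads, so how reads from the shared bases were divided between the genes is uncertain.

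Mettl14, the RNA-binding partner (chromosome 3, 123368297 to 123386108), had 5.54 and 4.37 with CBR+SAM, 5.68 and 5.22 with CBR, and 5.72 and 5.96 with DMSO. Both CBR and both CBR+SAM values lay below the DMSO pair, with log2 changes of -0.09 for CBR against DMSO (interval -0.53 to 0.36) and -0.21 for CBR+SAM against DMSO (-0.65 to 0.24), the second of which was -0.065 without CBR+SAM replicate 2. The change for CBR+SAM against CBR was -0.12 (-0.57 to 0.32), and 0.02 without CBR+SAM replicate 2. Per unit of length Mettl3 exceeded Mettl14 by 71.0 to 130 times across the libraries, and the highest ratio was that of CBR+SAM replicate 2. Coding transcripts of Mettl14 measure 634 to 7197 bases, so its value also rests on which of them was counted.

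Wtap, the regulatory subunit (chromosome 17, 12966796 to 12994169), had 198 and 266 with CBR+SAM, 225 and 257 with CBR, and 196 and 238 with DMSO. Replicate 2 was above replicate 1 in each group and the groups overlapped, with log2 changes of -0.07 for CBR+SAM against CBR (interval -0.52 to 0.39) and 0.15 for CBR against DMSO (-0.30 to 0.61). The second was 0.013 without DMSO replicate 1 and 0.295 without DMSO replicate 2. The change for CBR+SAM against DMSO was 0.09 (-0.36 to 0.54), and -0.12 without CBR+SAM replicate 2. The Mettl3 to Wtap ratio stayed between 1.79 and 2.22. Wtap matches the processed pseudogene Gm14292 at 99.3% identity over 456 bases, and that record had 54.3 to 103, so the division of reads between the 2 is uncertain. Their summed values were 280 and 320 with CBR+SAM, 307 and 355 with CBR, and 256 and 341 with DMSO, which overlap as well.

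The erasers were unequal in level. Alkbh5, the nuclear demethylase (chromosome 11, 60536381 to 60558512), had 25.6 and 42.3 with CBR+SAM, 28.5 and 25.7 with CBR, and 26.8 and 26.0 with DMSO. The value of CBR+SAM replicate 2 was alone above 28.5, and the other 5 lay close together. The log2 change for CBR+SAM against CBR was 0.27 (interval -0.29 to 0.83), and it was -0.08 without that library. Against DMSO the CBR+SAM change was 0.31 (-0.25 to 0.87), and -0.05 without it. With its single coding transcript of 5730 bases, Alkbh5 rested on about 2967 to 5758 fragments per library.

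Fto, which also removes the related cap mark m6Am (chromosome 8, 91313525 to 91668439), had 1.75 and 1.95 with CBR+SAM, 1.46 and 1.26 with CBR, and 1.1 and 1.7 with DMSO. The CBR+SAM values were above the other 4, and the CBR values lay within the DMSO pair. The log2 change was 0.27 for CBR+SAM against CBR (interval -0.26 to 0.80) and 0.26 for CBR+SAM against DMSO (-0.27 to 0.79). Against DMSO it was 0.08 without DMSO replicate 1, 0.44 without DMSO replicate 2 and 0.41 with a pseudocount of 0.1. Alkbh5 exceeded Fto by 14.6 to 24.5 times. Between 18 and 217 fragments stood behind an Fto value, depending on the library and transcript, and Fto overlaps antisense records that have no row in the table.

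Among the readers, the nuclear Ythdc1 (chromosome 5, 86804221 to 86836659) was highest. It had 150 and 191 with CBR+SAM, 175 and 183 with CBR, and 157 and 171 with DMSO. The CBR pair was above the DMSO pair and inside the CBR+SAM pair, with a log2 change of 0.13 for CBR against DMSO (interval -0.26 to 0.51). Rescaled to equal column sums that change was 0.086, and the CBR and DMSO values would overlap. Against DMSO the CBR+SAM change was 0.05 (-0.33 to 0.43), and -0.12 without CBR+SAM replicate 2. Ythdc1 shares 631 exonic bases with the same-strand non-coding gene Gm43055, which has no row in the table. The division of reads between them is thus uncertain.

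Of the 3 cytoplasmic YTHDF genes, Ythdf3 supplied 68.2% to 72.1% of their summed abundance, Ythdf2 25.4% to 29.6% and Ythdf1 2.21% to 2.76%. The sum of the 3 was 93.6 to 110. Ythdf2, the reader linked to mRNA decay (chromosome 4, 132184912 to 132212303), had 29.3 and 27.0 with CBR+SAM, 27.6 and 28.6 with CBR, and 26.8 and 25.2 with DMSO. It varied least of the 10, with a highest value 1.16 times the lowest, and both inhibitor groups lay just above DMSO. Its log2 changes were 0.11 for CBR against DMSO (interval -0.24 to 0.46) and 0.11 for CBR+SAM against DMSO (-0.24 to 0.46). Rescaled to equal column sums they were 0.066 and 0.031, and the CBR+SAM and DMSO values would overlap. Of the genes compared in the same way as for Mettl16, Got2, Ssrp1 and Srp72 had the log2 values nearest to those of Ythdf2. Their root mean square differences were 0.049, 0.0763 and 0.0764 over the 6 libraries, and 210 genes lay within 0.2. Pseudogene copies of Ythdf2 (Gm6823 and Gm8401) averaged 0.0046 and 0.0154.

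Ythdf3 (chromosome 3, 16183212 to 16217037), which has been described as working with the other two, had 77.7 and 76.6 with CBR+SAM, 76.4 and 65.9 with CBR, and 75.1 and 66.1 with DMSO. Ythdf1, often described as a reader that promotes translation (chromosome 2, 180904377 to 180920949), had 2.72 and 2.94 with CBR+SAM, 2.67 and 2.13 with CBR, and 2.36 and 2.25 with DMSO. In the values as deposited both were above all CBR and DMSO libraries with CBR+SAM, by small margins, for Ythdf3 76.6 against 76.4. At equal column sums the Ythdf3 groups would overlap. Fitted log2 changes for CBR+SAM against DMSO were 0.13 for Ythdf3 (interval -0.23 to 0.49) and 0.21 for Ythdf1 (-0.26 to 0.68). Rescaled to equal column sums they were 0.047 and 0.154.

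Taking the 10 genes as a set, none passed the adjusted threshold of 0.05 in any comparison, by limma on log2(value + 1) with Benjamini-Hochberg adjustment over the 12249 genes tested. In CBR+SAM against CBR, 0 of the 10 were called, against 0.00816% of all genes, and 1 (Mettl16) had an unadjusted p under 0.05, against 3.09%. Adjusted p ran from 0.988 to 0.998. Groups did not overlap for 4 of the 10, against 27.5% of all genes. Those higher were Fto, Ythdf1 and Ythdf3, against 15.0% of all genes, and the lower one was Mettl16, against 12.5%. The median log2 change was 0.04 for the 10 and 0.01 for all genes.

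In CBR against DMSO, 0 of the 10 were called and 0 had an unadjusted p under 0.05, against 0% and 2.12% of all genes. Groups did not overlap for 4, against 33.0%. Those higher were Mettl16, Ythdc1 and Ythdf2, against 15.7% of all genes, and the lower one was Mettl14, against 17.3%. The median log2 change was 0.04 for the 10 and -0.01 for all genes.

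In CBR+SAM against DMSO, 0 of the 10 were called and 0 had an unadjusted p under 0.05, against 0.00816% and 2.14% of all genes. Groups did not overlap for 6, against 24.5%. Those higher were Fto and the 3 YTHDF genes, against 12.4% of all genes, and the lower ones were Mettl14 and Mettl16, against 12.1%. The median log2 change was 0.10 for the 10 and -0.01 for all genes. The comparisons share libraries, so these counts are not independent of each other. Groups that did not overlap were counted on the values as deposited, whose column sums differ, with the largest sum in CBR+SAM replicate 2. At equal column sums the groups would overlap for Ythdf2 and Ythdf3 in CBR+SAM against DMSO. The same holds for Ythdf3 in CBR+SAM against CBR and for Ythdc1 in CBR against DMSO. The shares over all genes were not recounted on that scale.

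The intervals show what size of change was compatible with the fitted spread, which for each gene also draws on the trend over all genes. That spread is shared by the 3 groups, though replicates differed more with CBR+SAM. With the compared groups alone, the SE of Mettl3 in CBR against DMSO was 0.101 rather than 0.196. That of Mettl16 in CBR+SAM against CBR was 0.216 rather than 0.179. All 10 had 95% intervals inside a log2 change of 1 in either direction, with a pseudocount of 1, for CBR against DMSO and for CBR+SAM against DMSO, and 9 of 10 for CBR+SAM against CBR, where that of Mettl16 reached -1.02. With a pseudocount of 0.1, chosen for this count after seeing the data, 8 of 10 were inside it for CBR+SAM against CBR, 10 for CBR against DMSO and 9 for CBR+SAM against DMSO. The interval of Fto then reached 1.27 for the CBR+SAM change against CBR, and 1.26 for that against DMSO. The changes of single genes moved readily: of the 30 changes (10 genes in 3 comparisons), 26 moved by more than 1.5 times or turned when some 1 library was left out. The median difference between replicates was 0.246 log2 with CBR+SAM, 0.122 with CBR and 0.105 with DMSO, and over all genes tested it was 0.308, 0.19 and 0.171. With CBR+SAM 4 of the 10 exceeded the median of all genes, namely Alkbh5 (0.71), Mettl3 (0.53), Wtap (0.42) and Ythdc1 (0.35), and 3 did so with CBR and 4 with DMSO.

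**Figure D3:**
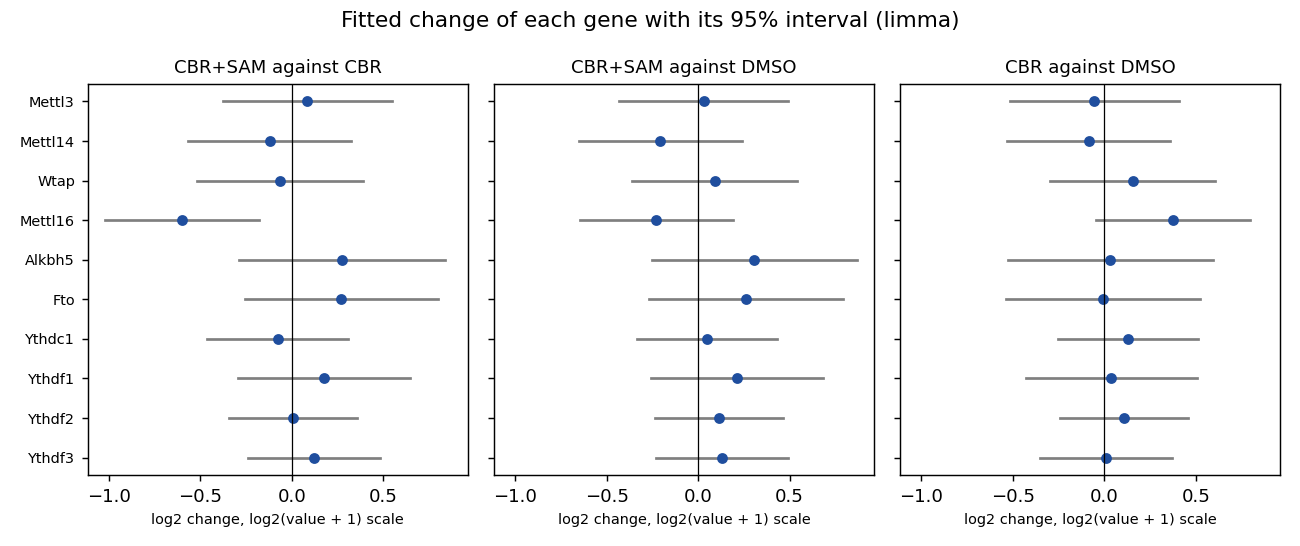
Fitted log2 change on the log2(value + 1) scale (point) with its 95% interval (line) for the 10 genes in the 3 comparisons, 2 libraries per group. The interval of Mettl16 in CBR+SAM against CBR, -1.02 to -0.18, is the one that leaves out 0, before adjustment over all genes.

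A wider list of 25 genes covered cofactors, rRNA and cap methyltransferases, further readers and the SAM synthetase genes. Of these, 23 were high enough to test, and 0 were called in any comparison, against 0% to 0.00816% of all genes. None reached an unadjusted p under 0.05, against 2.12% to 3.09% of all genes over the 3 comparisons (limma). The reader Igf2bp1 stayed at 0.484 or below, and Rbmx was also too low. Changes were positive for 8 of 23 with CBR+SAM against CBR, 10 of 23 with CBR against DMSO and 8 of 23 with CBR+SAM against DMSO. Over all genes 52.4%, 48.3% and 49% of changes were positive. In the values as deposited, groups did not overlap for 5, 7 and 8 of the 23 in those comparisons, against 27.5%, 33.0% and 24.5% of all genes. Changes of this list without single libraries were computed after seeing the data.

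Cofactors of the METTL3 complex stood between the levels of Mettl14 and Wtap or below both. The scaffold Virma had 15.9 in both CBR+SAM libraries, 17.6 in both CBR libraries, and 14.2 and 16.2 with DMSO. Both CBR values were above the rest, with a log2 change of 0.20 for CBR against DMSO (interval -0.17 to 0.57). Zc3h13, which holds the complex in the nucleus, had 24.7 and 16.4 with CBR+SAM, 28.6 and 26.7 with CBR, and 21.4 and 27.9 with DMSO, and its log2 change for CBR+SAM against CBR was -0.44 (-0.98 to 0.11), and -0.16 without CBR+SAM replicate 2. Cbll1 lay between 13.4 and 15.1. The adaptors Rbm15 and Rbm15b, which bring the complex to its RNA, were lower, between 3.83 and 5.87 and between 1.66 and 2.48.

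Other genes of the list stood as follows. The m6A reader Igf2bp2 was abundant, with 86.3 and 99.1 with CBR+SAM, 105 and 88.7 with CBR, and 106 and 109 with DMSO. Igf2bp3 had 20.9 and 25.4 with CBR+SAM, 22.0 and 19.1 with CBR, and 19.4 and 17.8 with DMSO, a log2 change of 0.30 for CBR+SAM against DMSO (interval -0.11 to 0.71) that was 0.16 without CBR+SAM replicate 2. The CBR+SAM values of Igf2bp3 were above and those of Igf2bp2 below the DMSO pair. Both CBR values of Igf2bp2 also lay below that pair, the higher narrowly. Its log2 changes against DMSO were -0.15 with CBR (interval -0.52 to 0.21) and -0.21 with CBR+SAM (-0.58 to 0.15). Ythdc2, a reader with a helicase domain, lay between 4.14 and 5.13. The rRNA methyltransferase gene Zcchc4 had 1.88 and 1.42 with CBR+SAM, 3.35 and 2.13 with CBR, and 1.21 and 2.17 with DMSO. Its DMSO and CBR values overlapped, and both CBR+SAM values lay below both CBR values. The log2 change was 0.48 for CBR against DMSO (interval -0.17 to 1.13) and -0.48 for CBR+SAM against CBR (-1.13 to 0.17). The first was 0.22 without DMSO replicate 1 and 0.74 without DMSO replicate 2. The second was -0.24 without CBR replicate 1 and -0.72 without CBR replicate 2. Prrc2a had 3.12 in CBR+SAM replicate 2 and 0.879 to 1.17 elsewhere, so its log2 change of 0.58 for CBR+SAM against CBR (-0.19 to 1.36) was 0.10 without that library.

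**Figure D4:**
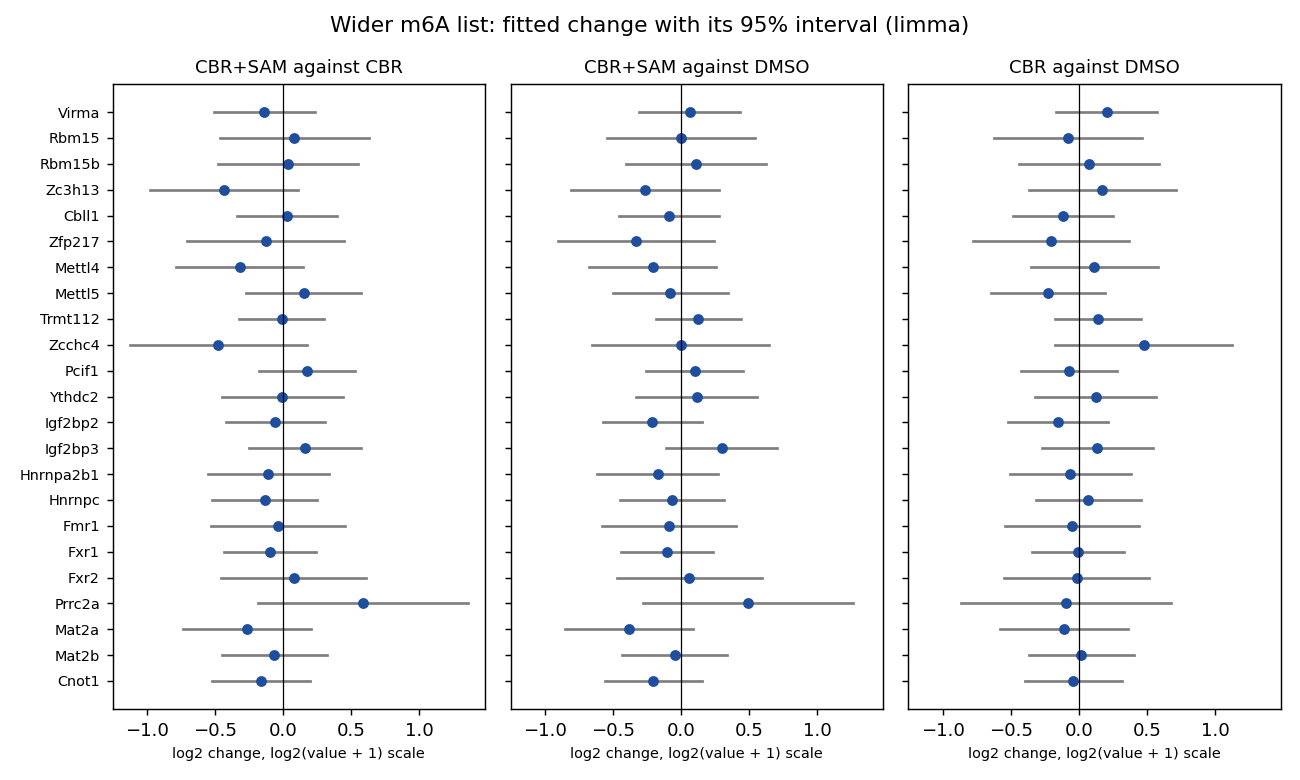
Fitted log2 change (point) with its 95% interval (line) of the 23 tested genes of the wider m6A list in the 3 comparisons, on the log2(value + 1) scale. All intervals include 0; the widest belong to the low genes Prrc2a and Zcchc4.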

How the data were processed

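The labels' protocols name a SMART-Seq v4 kit for cDNA and Nextera XT for the 6 libraries. The deposited table holds 1 signal value per gene and library. Per the submitters' processing notes, kallisto, fastp and DESeq2 were used with mm10, and neither versions nor roles are stated. Column sums differ, from 956209 to 1059424, so the values are not plain TPM, and any further scaling is not given in the sources used here. GENCODE M21 (GRCm38) gave symbols for 35820 of 36065 rows.

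Values were tested as log2(value + 1) for the 12249 genes that reached 1 in 2 or more libraries, with limma 3.58.1 in R 4.3.3, a mean-variance trend, all 3 groups in 1 fit and 3 residual degrees of freedom. Such changes understate those of low genes. The p-values are two-sided and reflect how far these particular libraries differ. A permutation test of 2 against 2 libraries cannot go below 0.333 and was not used. The code was tested on simulated data.

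Low values of single-transcript genes above 1500 bases fell on steps: 80.3% to 81.5% of values up to 10 fragments lay within 0.1 of a whole number, against 20% for values spread evenly. The step was sought in a narrow range, so depths are approximate and no count test was run. Copies were searched with blastn 2.17.0, at 95% identity over at least 150 bases.

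The 10 genes and both lists were chosen with earlier results of these data known. All 10 are named. From the wider list those named are Mat2a, the complex cofactors, Ythdc2, the Igf2bp genes and the 2 with the smallest unadjusted p per comparison. Alternatives were another pseudocount, filters, scalings, a replicate block, the compared groups alone, and each library left out. For the wider list the last was added after seeing the data.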

Additional observations from a re-analysis of the deposited data

How the results depend on the processing

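None of the 10 genes was called under any alternative, that is, with a pseudocount of 0.1, without a filter, with a mean of at least 10 (which left 6 of the 10), rescaled to equal column sums, after quantile normalization, with the compared groups alone or without any 1 library. Groups share replicate numbers, which the labels do not tie to a common source. Differences between replicates correlated at 0.39 for DMSO and CBR, 0.22 for DMSO and CBR+SAM and 0.09 for CBR and CBR+SAM. With the replicate number as a block 0 of the 10 genes were called in each comparison. Of 378 alternative values of the 10 genes, 349 kept their direction and 29 reversed, 22 with 1 library left out. The cause was not tested. The filters, block, compared groups alone and omission of a third-group library cannot alter a change, so 349 overstates stability. Rescaled to equal column sums, CBR against DMSO gave -0.007 for Alkbh5 and -0.032 for Ythdf3, CBR+SAM against CBR gave -0.035 for Ythdf2, and CBR+SAM against DMSO gave -0.052 for Mettl3 and -0.034 for Ythdc1. After quantile normalization Fto was 0.026 in CBR against DMSO and Mettl3 -0.014 in CBR+SAM against DMSO. With 1 library left out, where the lone library of a group is assumed to vary like the other groups, CBR against DMSO ran from -0.037 to 0.104 for Alkbh5, -0.191 to 0.172 for Fto, -0.142 to 0.034 for Mettl3, -0.076 to 0.152 for Ythdf1 and -0.095 to 0.115 for Ythdf3. Likewise CBR+SAM against CBR ran from -0.079 to 0.627 for Alkbh5, -0.263 to 0.021 for Mettl14, -0.179 to 0.348 for Mettl3, -0.276 to 0.146 for Wtap, -0.251 to 0.094 for Ythdc1 and -0.052 to 0.061 for Ythdf2. CBR+SAM against DMSO ran from -0.046 to 0.66 for Alkbh5, -0.233 to 0.295 for Mettl3, -0.121 to 0.301 for Wtap and -0.123 to 0.222 for Ythdc1. Mettl16 kept its direction in all 3 comparisons under every alternative that tested it. Its groups overlapped in none, so only the rescaling and the quantile normalization could have turned that direction. They gave -0.636 and -0.626 for CBR+SAM against CBR, 0.338 and 0.4 for CBR against DMSO, and -0.298 and -0.226 for CBR+SAM against DMSO. In CBR+SAM against CBR, genes called over the whole table were 1 as reported, 0 to 9 over the alternatives, and m6A genes with an unadjusted p under 0.05 were 1 as reported, 0 without CBR replicate 1 and 3 without CBR+SAM replicate 1. In the other comparisons such m6A genes were at most 1. Over all genes 1 was called in CBR+SAM against DMSO, 0 to 3 over the alternatives, and 0 in CBR against DMSO, 0 to 2. Genes with an unadjusted p under 0.05 were 378 in CBR+SAM against CBR (141 with a mean of at least 10, 2369 without CBR+SAM replicate 1), 260 in CBR against DMSO (77 with that mean, 882 without a filter) and 262 in CBR+SAM against DMSO (73 and, without CBR+SAM replicate 1, 2044).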
